A study of Rattus norvegicus with 12 samples.

Results

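The genes described are 6 genes that mark the alveolar type 1 cell, Ager, Aqp5, Hopx, Pdpn, Cav1 and Rtkn2, in the lungs of rats exposed to cigarette smoking and lipopolysaccharide (CS+LPS). They were found on the array by the RefSeq accession of each probe, which led to 7 of the 30367 probes for transcripts and to 6 of the 14737 genes with a symbol. Each gene is given by its most intense detected probe. Pdpn had a second probe, which is named where it is used. Male Sprague–Dawley rats aged 8 to 12 weeks formed 4 groups with 3 arrays in each. The control group received air or saline. The CS+LPS group breathed cigarette smoke and had LPS, a bacterial wall component that provokes inflammation, instilled into the trachea. The CS+LPS+NaHS group had the same exposure and injections of NaHS, a salt that releases hydrogen sulfide. The CS+LPS+PPG group had the same exposure and injections of PPG, an inhibitor of CTH, an enzyme that forms hydrogen sulfide. Smoke with LPS is used as a model of chronic obstructive pulmonary disease (COPD), and no group received NaHS or PPG without it. RNA came from whole tissue of the left upper lobe and was labelled with 1 dye. Replicates were separate samples by their labels, which do not name the animals, so the p-values measure the spread between these samples.

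Alveolar type 1 cells are thin, flat cells that cover most of the gas exchange surface of the lung. They are formed from alveolar type 2 cells, the surfactant-producing cells that divide after injury, and cells in between pass through a transitional state marked by keratin 8. Ager encodes RAGE, a receptor of the type 1 cell's basal membrane that binds S100 proteins and HMGB1. Aqp5 encodes a water channel of the apical membrane. Hopx encodes a small homeodomain protein without DNA binding of its own. Pdpn encodes podoplanin, a mucin-type membrane protein that binds ezrin and the platelet receptor CLEC-2. Cav1 encodes caveolin-1, the coat protein of caveolae, and is also abundant in endothelium. In bulk lung RNA, fewer cells of a type cannot be told apart from less RNA per cell.

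Signals are given as log2 of the processed signal after each array was scaled to its 75th percentile, and a difference of 1 on this scale is a 2-fold change. The percentile lay between 856 and 2222 signal units. A probe was called detected, and was tested, if some group had it well above background in all of its 3 arrays, which held for 21239 probes. Control replicate 3 stood apart from the other arrays. It had the lowest percentile, its correlation with the other 11 arrays was 0.936 to 0.956 against at least 0.975 among these, and it lay on the same slide as the 3 CS+LPS arrays while the other 8 arrays lay on slide 1. It was also high in markers of other tissues. The summed signal of 4 heart muscle markers was 86422 in control replicate 3, and 7033 and 6268 in control replicates 1 and 2. These markers were also seen in other arrays, with sums of 12556 to 50400 in CS+LPS, 10194 to 52945 in CS+LPS+NaHS and 38716 to 67092 in CS+LPS+PPG. Fat markers (3 genes) summed to 6936 in control replicate 3, 564 and 734 in the other controls, 809 to 1195 in CS+LPS, 618 to 1156 in CS+LPS+NaHS and 1974 to 4082 in CS+LPS+PPG. The labelled tissue was borne out by its defining markers. Of 20 alveolar type 1 markers, the 6 genes included, 18 were detected, as were 9 of 10 alveolar type 2 markers.

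None of the 5 detected genes was called in any of 6 comparisons. A gene was called by the fold rule at a fold change of at least 2 with an unadjusted p under 0.05, or by the adjusted rule at a Benjamini-Hochberg adjusted p under 0.05 in limma over all 21239 probes. Between CS+LPS and control, the median difference of the 5 genes was -0.12 (range -0.17 to 0.19), and that of all probes was -0.04. In this comparison 4.56% of all probes were called by the fold rule, 2.02% by the adjusted rule, 25.2% had an unadjusted p under 0.05, and 25.2% did not overlap between groups. None of the 5 genes met any of these 4 criteria. The confidence intervals (95%) of the 5 fold changes reached from 0.641 to 1.91, so a halving or doubling lay outside the intervals of this fit.

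Both treated groups also had 0 called members against control. Between CS+LPS+NaHS and control the median of the 5 genes was 0.026 (range -0.30 to 0.35; all probes, 0), with 2.67% of all probes called by the fold rule and 0.0989% by the adjusted rule. In that comparison Pdpn alone of the 5 genes had an unadjusted p under 0.05 and alone did not overlap, where 17.1% and 24.8% of all probes did so. Between CS+LPS+PPG and control the median was 0.040 (range -0.33 to 0.049; all probes, -0.01), with 4.38% of probes called by the fold rule and 4.64% by the adjusted rule. Again Pdpn alone had an unadjusted p under 0.05 and did not overlap, beside 29.3% and 33.2% of all probes. The comparisons with control share their control arrays.

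Neither treatment gave a call against the CS+LPS group. When CS+LPS+NaHS was set against CS+LPS, the median was 0.064 (range -0.14 to 0.34), with 1.7% of all probes called by the fold rule, 0.593% by the adjusted rule and 9.67% at an unadjusted p under 0.05, which no member reached. Between CS+LPS+PPG and CS+LPS it was 0.022 (range -0.16 to 0.21), with 2.05%, 0.523% and 10.5% of all probes, and again no member. In both comparisons Aqp5 was the only 1 of the 5 genes whose groups did not overlap, as was the case for 20.5% and 19.1% of all probes. Between CS+LPS+PPG and CS+LPS+NaHS the median was -0.025 (range -0.30 to 0.062), the shares of all probes were 0.523% by the fold rule, 0% by the adjusted rule, 8.74% at an unadjusted p under 0.05 and 25.2% without overlap, and Ager was the only member without overlap. At an unadjusted p under 0.05 that is 1857 probes, and none of the 5 genes. Over these 5 comparisons the intervals of the members' folds reached as low as 0.483 and as high as 2.14, both for Ager, in CS+LPS+PPG against CS+LPS+NaHS and in CS+LPS+NaHS against control. Of the 6 comparisons, those of the treated groups with CS+LPS are also comparisons between slides. The comparison of CS+LPS with control is so too, apart from control replicate 3, since control replicates 1 and 2 lay on slide 1.

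**Figure D1:**
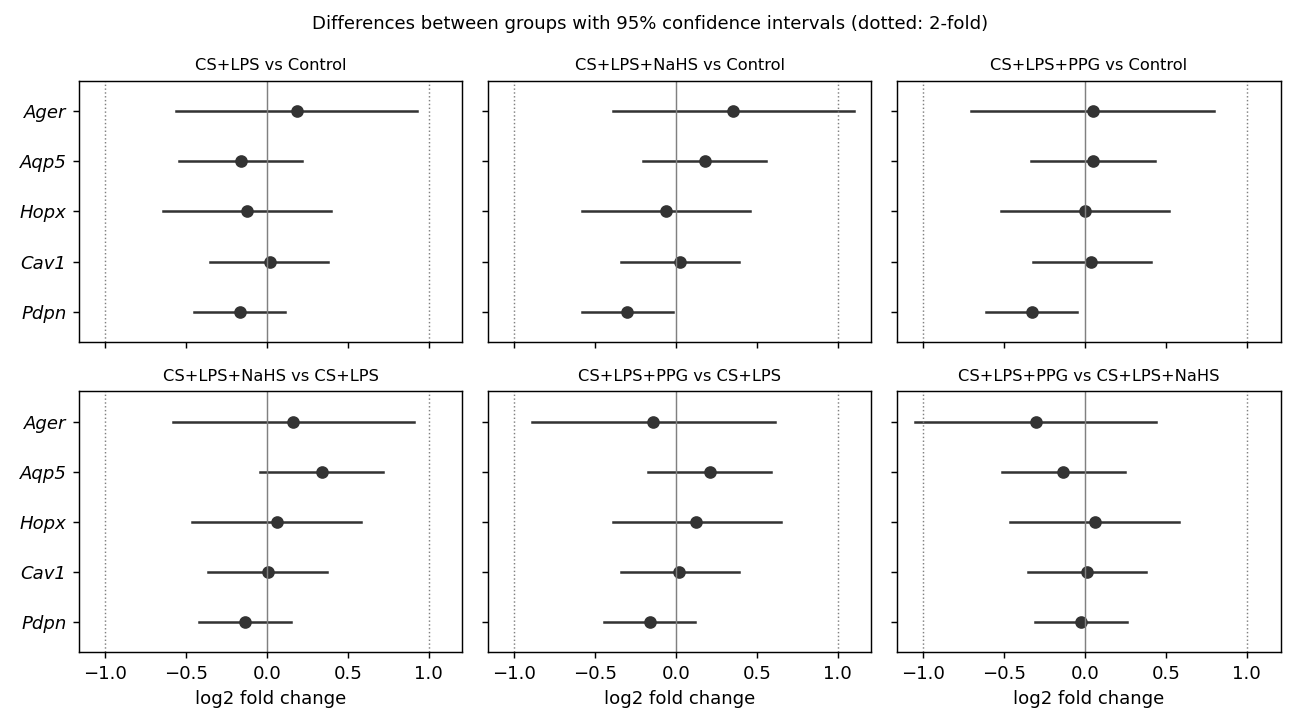
Differences of the 5 detected genes in 6 comparisons, as log2 fold change (x axis) with 95% confidence intervals from limma over 12 arrays. Points lie between -0.33 and 0.35, and the intervals of Pdpn in the comparisons of the treated groups with control are the only ones that do not cross 0.

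Ager, the receptor, varied most among control arrays. It was at 15.68, 15.70 and 14.17 in control replicates 1, 2 and 3. It was at 15.21, 15.30 and 15.60 in CS+LPS, 15.47, 15.52 and 15.63 in CS+LPS+NaHS, and 15.02, 15.33 and 15.35 in CS+LPS+PPG. The first 2 controls were the highest of all 12 arrays and the third control was the lowest, so that the control group spanned every other value. Group means were 15.18 ± 0.88, 15.37 ± 0.20, 15.54 ± 0.08 and 15.23 ± 0.18 (SD, n = 3) in the groups in the same order. The difference between CS+LPS and control was 0.19 (SE 0.338, limma adjusted p = 0.734). All CS+LPS+PPG arrays lay below all CS+LPS+NaHS arrays, with a difference of -0.30 (SE 0.338, adjusted p = 0.826).

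The result for Ager rested on control replicate 3. This array deviated by -1.52 from the mean of the other controls, and 1.33% of detected probes deviated further down, while control replicates 1 and 2 were 0.02 apart. Without it, Ager in CS+LPS was -0.32 from control (SE 0.149, limma adjusted p = 0.273), in CS+LPS+NaHS -0.15 (adjusted p = 0.705) and in CS+LPS+PPG -0.46 (SE 0.149, adjusted p = 0.105). With slide as a block, where control replicate 3 is the only control that shares a slide with CS+LPS, Ager was instead 1.2 higher in CS+LPS than in control (SE 0.189, adjusted p = 0.00133). In that fit 41.6% of all probes passed the adjusted rule between CS+LPS and control, against 2.02% over all arrays without the block. Against CS+LPS the same fit gave -1.35 for CS+LPS+NaHS (adjusted p = 0.00654) and -1.66 for CS+LPS+PPG (adjusted p = 0.0032), beside 23% and 22.6% of all probes that passed. The direction of the Ager difference between exposed and control lungs thus changed with how 1 array was handled. Both spots of Ager on control replicate 3 were read from the high-gain scan, while its 22 spots on the other arrays were read from the low-gain scan that the software uses for bright spots. Heart muscle and fat markers, the slide and the scan moved together on this array, and their part in the low value was not tested.

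Ligands and effectors of RAGE were detected for 7 of 8 genes listed. S100a4, a calcium-binding protein of fibroblasts and leukocytes, rose in CS+LPS by 0.82 (SE 0.177, limma adjusted p = 0.045) and in CS+LPS+PPG by 0.97 (SE 0.177, adjusted p = 0.0248). Its control arrays were at 15.34 to 15.87, CS+LPS at 16.18 to 16.64 and CS+LPS+PPG at 16.52 to 16.58, with no overlap. In CS+LPS+NaHS it was 0.55 over control (adjusted p = 0.197). Over 24 alternatives the CS+LPS difference was 0.70 to 1.07 and the CS+LPS+PPG difference 0.75 to 1.11. The adjusted p was above 0.05 under 16 and 8 of them, and without control replicate 3 it was 0.0806 in CS+LPS. S100a8 and S100a9, the subunits of calprotectin that neutrophils carry, were called by the fold rule in CS+LPS+PPG against control, at 1.31 (adjusted p = 0.105) and 1.32 (adjusted p = 0.0748). Neither was called without control replicate 3, at 0.90 and 0.99 (adjusted p of 0.247 and 0.163). No gene of the list passed either rule in the other 4 comparisons. The list's median against control was -0.11 in CS+LPS, -0.26 in CS+LPS+NaHS and 0.01 in CS+LPS+PPG, and without control replicate 3 it was 0.01, 0.13 and 0.38. The sum of 5 neutrophil markers, which include S100a8 and S100a9, had a range of 7294 to 18622 over controls, 15436 to 32531 in CS+LPS, 16047 to 32088 in CS+LPS+NaHS and 24620 to 34774 in CS+LPS+PPG. The part of cell numbers in the S100 values was not tested.

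**Figure D2:**
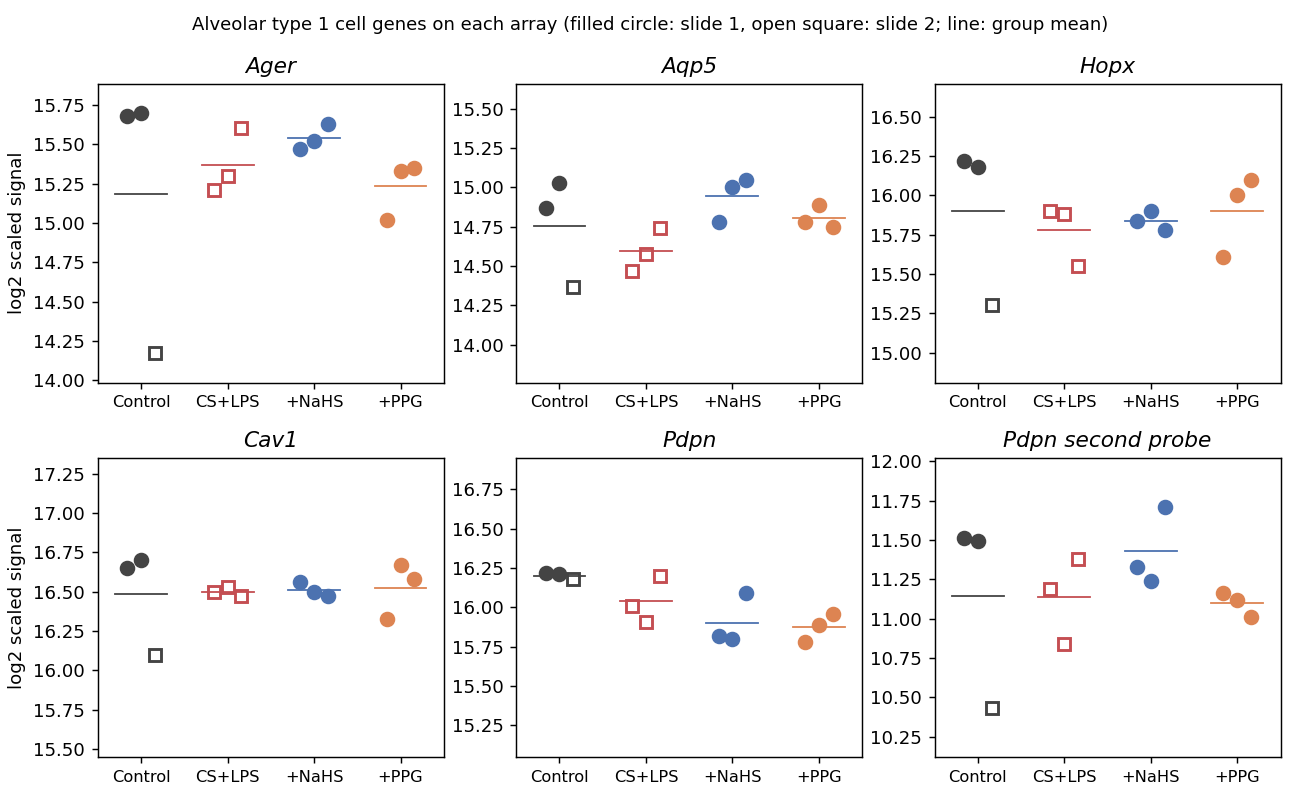
Log2 scaled signal (y axis, spanning the same 1.9 log2 units in every panel) of Ager, Aqp5, Hopx, Cav1 and both Pdpn probes on each array, by group (x axis), with lines at group means. Control replicate 3 (open square in the control column) is the lowest of 12 arrays in every panel except that of the bright Pdpn probe, where the 3 controls lie between 16.18 and 16.22.

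Aqp5, the water channel, was lowest on the arrays of slide 2. Its signal was 14.87, 15.03 and 14.37 in control replicates 1, 2 and 3. It was 14.47, 14.58 and 14.74 in CS+LPS, 14.78, 15 and 15.05 in CS+LPS+NaHS, and 14.78, 14.89 and 14.75 in CS+LPS+PPG. The 4 lowest values were control replicate 3 and the 3 CS+LPS arrays, all of slide 2, and both treated groups lay above the CS+LPS group without overlap. The group means were 14.76 ± 0.35 in control, 14.60 ± 0.14 in CS+LPS, 14.94 ± 0.14 in CS+LPS+NaHS and 14.81 ± 0.07 in CS+LPS+PPG (SD, n = 3). Aqp5 was 0.34 higher in CS+LPS+NaHS than in CS+LPS (SE 0.172, limma adjusted p = 0.587), a difference with an interval of -0.04 to 0.72. It was 0.21 higher in CS+LPS+PPG than in CS+LPS (adjusted p = 0.709). Once slide was a block, both differences turned, to -0.24 (adjusted p = 0.433) and -0.37 (adjusted p = 0.231). In these comparisons the treatment cannot be told apart from the slide except through control replicate 3. Against control, Aqp5 was -0.16 in CS+LPS (adjusted p = 0.555), and -0.36 without control replicate 3 (adjusted p = 0.181).

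Of 9 other water and ion channels of lung epithelium, all 9 were detected and none passed the adjusted rule in any comparison. Aqp3, a water channel that also carries glycerol, was the only gene called by the fold rule. It was at 8.23 to 8.54 in CS+LPS+PPG, 4.01 to 7.15 in CS+LPS and 3.91 to 7.93 in CS+LPS+NaHS, and 5.44 to 8.07 in control. Of the CS+LPS and the CS+LPS+NaHS arrays, 2 of 3 in each group had it well above background, so these differences rest in part on signals near background. The difference was 2.65 from CS+LPS (SE 1.04, limma adjusted p = 0.401) and 2.34 from CS+LPS+NaHS (SE 1.04, adjusted p = 0.566). All CS+LPS+PPG arrays lay above all others, a separation whose share over all probes was not computed. With slide as a block the difference from CS+LPS was 0.28 (adjusted p = 0.926), and without CS+LPS+NaHS replicate 1 that from CS+LPS+NaHS was 1.26 (adjusted p = 0.711). The median of the 9 channels was -0.57 in CS+LPS against control, -0.26 in CS+LPS+NaHS and -0.26 in CS+LPS+PPG, and -0.66, -0.39 and -0.44 without control replicate 3. Subunits of the epithelial sodium channel were lower in CS+LPS at an unadjusted p under 0.05, Scnn1g at -0.86 (adjusted p = 0.0746) and Scnn1b at -0.59 (adjusted p = 0.0704). So was Atp1b1 of the sodium pump, at -0.89 (adjusted p = 0.141). Without control replicate 3 the fold rule called Scnn1g in CS+LPS, at -1.02 (adjusted p = 0.0638). In CS+LPS+PPG it then called Scnn1a, another subunit of that channel, at -1.07 (adjusted p = 0.0556) and Atp1b1 at -1.02 (adjusted p = 0.133).

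Hopx, the homeodomain protein, was highest in the first 2 controls. It was at 16.22, 16.18 and 15.30 in control replicates 1, 2 and 3, at 15.90, 15.88 and 15.55 in CS+LPS, at 15.84, 15.90 and 15.78 in CS+LPS+NaHS, and at 15.61, 16 and 16.1 in CS+LPS+PPG. All groups overlapped. Means were 15.90 ± 0.52, 15.78 ± 0.20, 15.84 ± 0.06 and 15.90 ± 0.25 (SD, n = 3) in that order. The difference between CS+LPS and control was -0.12 (SE 0.236, limma adjusted p = 0.752). Control replicate 3 deviated by -0.89 from the mean of the other controls. Without it, all 9 exposed arrays lay below both controls, a separation whose share over all probes was not computed. The difference between CS+LPS and control was then -0.42 (SE 0.163, adjusted p = 0.198). In the fit with slide it was 0.47 (adjusted p = 0.0913), and Hopx was at -0.83 in CS+LPS+NaHS against CS+LPS (SE 0.263, adjusted p = 0.0472). In the latter comparison of that fit 23% of all probes passed the adjusted rule.

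The bases before the start of Hopx are shown because Hopx and Cav1 varied together over the arrays, as given further on. Promoters came from the RefSeq table of assembly GRCr8, which held all 6 genes with 7 starts, since Cav1 has a pair of them. Capitals mark CCACCC, or GGGTGG on the other strand, which is the core of the GC-rich box that KLF factors bind. This motif and 3 others were searched on both strands of the 250 bases before each start, and no motif overlapped with another. For Hopx these are chr14:31429163-31429412 on the plus strand, 5′ to 3′.
Hopx: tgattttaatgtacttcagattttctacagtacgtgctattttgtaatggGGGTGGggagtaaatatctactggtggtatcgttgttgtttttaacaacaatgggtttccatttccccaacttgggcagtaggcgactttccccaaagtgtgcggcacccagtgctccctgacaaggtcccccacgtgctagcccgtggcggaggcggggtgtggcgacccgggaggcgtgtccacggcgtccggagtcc
The 250 bases hold 1 KLF motif, which begins 200 bases before the start. CCACCC was in 26.1% of all 33469 promoters of this length and in 5 of the 7 of the member genes. CAAGTG of the NKX2 family, GGAATG of TEAD factors and AGATAA of GATA factors were in 11.7%, 12.1% and 10.3% of all promoters and in 0 of the 7. A match is a description of the letters only.

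Regulators of alveolar type 1 cell fate were detected for 7 of 10 genes listed. Klf5, a zinc finger factor of lung epithelium, fell in all 3 exposed groups against control. Control arrays had a signal of 11.24 to 11.59, CS+LPS arrays 10.49 to 10.75, and the treated groups 10.42 to 10.56 with NaHS and 10.26 to 10.35 with PPG. No exposed array reached the lowest control. The differences were -0.76 (SE 0.131, limma adjusted p = 0.0265), -0.89 (SE 0.131, adjusted p = 0.0366) and -1.05 (SE 0.131, adjusted p = 0.012), and the last also passed the fold rule. Klf5 was not among the genes low in control replicate 3, which had its highest value. Over 24 alternatives each, the 3 differences stayed within -0.98 to -0.64, -0.96 to -0.78 and -1.12 to -0.94. The adjusted p was above 0.05 under 8, 19 and 4 of them. At its highest it was 0.343, 0.272 and 0.14. It was 0.0529 in CS+LPS without CS+LPS replicate 1, 0.0523 in CS+LPS+NaHS without control replicate 3, and 0.0573 in CS+LPS+PPG without CS+LPS+PPG replicate 1. Gata6, an endoderm factor, was -0.79 in CS+LPS (adjusted p = 0.0988), -0.56 in CS+LPS+NaHS and -0.67 in CS+LPS+PPG, passed neither rule, and was at -0.46, -0.24 and -0.34 without control replicate 3. Nkx2-1, the lung lineage factor, was -0.73 in CS+LPS+PPG against control (adjusted p = 0.073), or -0.51 without that array (adjusted p = 0.138). The medians of the list were -0.65, -0.35 and -0.67 against control, and those of all probes -0.04, 0 and -0.01. In control replicate 3 the list's median lay 0.58 above the other controls, and without this array the medians were -0.06, -0.13 and -0.19 (all probes -0.01, 0.01 and 0.02). The low medians thus rested on that array. No regulator passed either rule between exposed groups.

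Pdpn, podoplanin, was the only member in which control replicate 3 was close to the other controls. The bright probe, with 1 spot per array, was at 16.22, 16.21 and 16.18 in control, 16.01, 15.91 and 16.20 in CS+LPS, 15.82, 15.80 and 16.09 in CS+LPS+NaHS and 15.78, 15.89 and 15.96 in CS+LPS+PPG. Both treated groups lay below control without overlap, and 1 CS+LPS array lay within the range of control. Means were 16.20 ± 0.02, 16.04 ± 0.15, 15.90 ± 0.16 and 15.88 ± 0.09 (SD, n = 3) in the same order. Against control the difference was -0.17 in CS+LPS (SE 0.128, limma adjusted p = 0.412), -0.30 in CS+LPS+NaHS (SE 0.128, adjusted p = 0.267) and -0.33 in CS+LPS+PPG (SE 0.128, adjusted p = 0.124). The intervals of the last pair were -0.58 to -0.02 and -0.61 to -0.05. Without control replicate 3 the 3 values were -0.18, -0.31 and -0.34, since that array deviated by only -0.03.

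The second probe of Pdpn gave another pattern. It was at 11.51, 11.49 and 10.43 in control, 11.19, 10.84 and 11.38 in CS+LPS, 11.33, 11.24 and 11.71 in CS+LPS+NaHS, and 11.16, 11.12 and 11.01 in CS+LPS+PPG. Control replicate 3 deviated by -1.08 from the other controls here. Differences from control were -0.0038 in CS+LPS, 0.28 in CS+LPS+NaHS and -0.046 in CS+LPS+PPG (limma adjusted p of 0.994, 0.601 and 0.924). The probes thus disagreed in direction for CS+LPS+NaHS and about the control array that stood apart. Without that array the second probe was at -0.36, -0.077 and -0.41, below control in all 3 groups like the bright probe (adjusted p of 0.296, 0.897 and 0.195). In the fit with slide it was 0.72 higher in CS+LPS than in control (adjusted p = 0.0305), beside 41.6% of all probes that passed the adjusted rule. Control replicate 3 is the only control on the slide of CS+LPS. The probes are on the same transcript record, and what sets them apart was not tested.

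Of 7 genes whose proteins bind or neighbour podoplanin, 6 were detected and none passed either rule in any comparison. Their medians against control were 0.25 in CS+LPS, 0.19 with NaHS added and 0.24 with PPG added, or 0.07, 0.02 and 0.09 without control replicate 3. Cd44, a hyaluronan receptor that associates with podoplanin, was 0.67 higher in CS+LPS (limma adjusted p = 0.0658) and 0.43 higher in CS+LPS+PPG (adjusted p = 0.123), and 0.46 and 0.22 without that array. Control replicate 3 was the lowest of 12 arrays for 83.3% of these genes, against 27.9% of all detected probes.

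Cav1, the caveolar coat protein, differed least between groups. It was at 16.65, 16.70 and 16.10 in control, 16.50, 16.53 and 16.47 in CS+LPS, 16.56, 16.50 and 16.47 in CS+LPS+NaHS and 16.33, 16.67 and 16.58 in CS+LPS+PPG. Apart from control replicate 3, all 11 arrays lay between 16.33 and 16.70, with an SD of 0.11. The means were 16.48 ± 0.33, 16.50 ± 0.03, 16.51 ± 0.05 and 16.52 ± 0.18 (SD, n = 3). All 6 differences lay between 0.0075 and 0.040, and their intervals between -0.36 and 0.41. Control replicate 3 deviated by -0.58 from the other controls. Without it the 3 exposed groups were at -0.17, -0.17 and -0.15 from control (limma adjusted p of 0.45, 0.585 and 0.452). Fitted with slide, Cav1 was 0.40 higher in CS+LPS than in control (adjusted p = 0.0579).

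The letters before both starts of Cav1 in the same table are given for comparison with Hopx, with the same motif in capitals. They lie at chr4:46606288-46606537 and chr4:46607722-46607971, both on the plus strand of GRCr8, 5′ to 3′.
Cav1 first start: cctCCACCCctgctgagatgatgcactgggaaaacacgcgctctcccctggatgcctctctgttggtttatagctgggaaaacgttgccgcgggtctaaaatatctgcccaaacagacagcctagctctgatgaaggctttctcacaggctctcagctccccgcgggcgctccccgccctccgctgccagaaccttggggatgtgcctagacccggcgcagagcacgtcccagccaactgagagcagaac
Cav1 second start: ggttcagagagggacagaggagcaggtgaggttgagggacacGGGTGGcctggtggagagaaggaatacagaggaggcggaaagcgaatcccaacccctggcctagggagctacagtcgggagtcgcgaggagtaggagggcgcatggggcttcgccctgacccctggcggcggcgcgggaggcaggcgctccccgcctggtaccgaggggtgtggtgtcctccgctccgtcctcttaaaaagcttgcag
Each stretch holds 1 KLF motif, 247 and 208 bases before the start, and none of the other 3 motifs. The array does not tell which start was used.

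All 7 other genes of caveolae were detected and none passed either rule. Their medians against control were 0.04 in CS+LPS, 0.01 with NaHS added and 0.06 with PPG added, and turned to -0.12, -0.07 and -0.23 without control replicate 3. Members moved in different directions at an unadjusted p under 0.05. Cavin2, a coat protein, was -0.84 in CS+LPS (limma adjusted p = 0.0907) and -0.94 in CS+LPS+NaHS (adjusted p = 0.142), and was highest in control replicate 3 at 17.96, without which the values were -0.50 and -0.60. Cavin1, another coat protein, was 0.96 higher in CS+LPS+NaHS than in CS+LPS (adjusted p = 0.101) and 0.88 higher in CS+LPS+PPG (adjusted p = 0.143), again across the slides. Nos3, the endothelial nitric oxide synthase that caveolin-1 binds, was -0.56 in CS+LPS+PPG against control (adjusted p = 0.107), or -0.44 without that array.

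Rtkn2 was not well above background. Its processed signal lay between 5 and 24 over 24 spots, of which 1 was well above background, on an array of CS+LPS+NaHS. It was not tested and no fold is given.

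**Figure D3:**
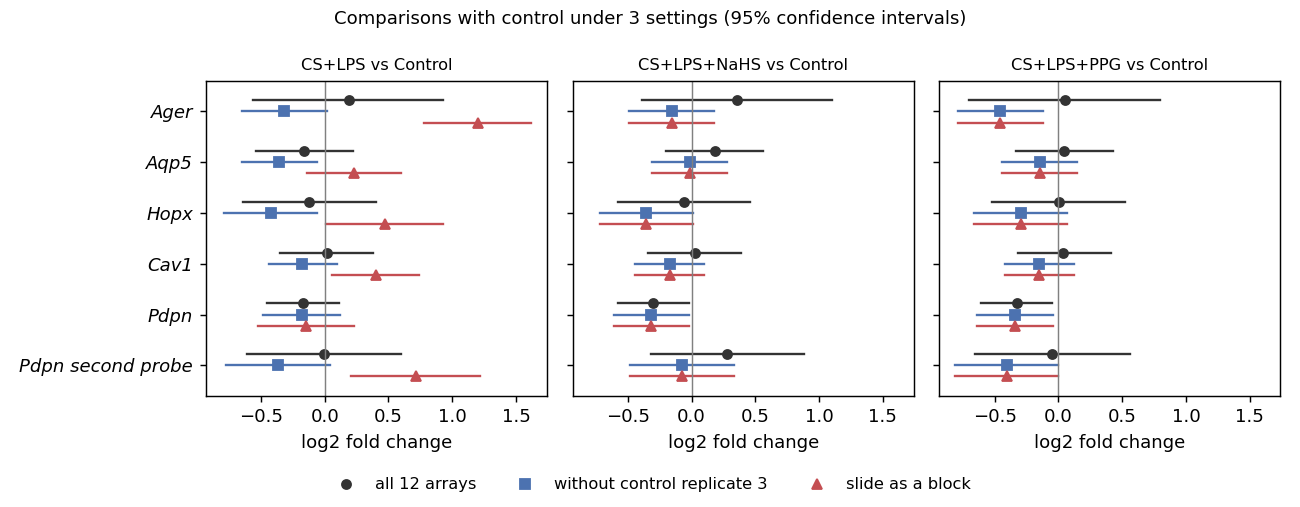
Differences from control (x axis, log2 fold change with 95% confidence intervals) of the 5 detected genes and the second Pdpn probe, in all 12 arrays, without control replicate 3, and with slide as a block. In CS+LPS against control the last 2 settings give Ager -0.32 and 1.2, and for the treated groups they coincide, since the block then compares within slide 1.

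Other genes known from alveolar type 1 cells were measured on the same arrays, 13 of 14 being detected. Their medians against control were -0.25 in CS+LPS, -0.18 with NaHS added and -0.37 with PPG added (-0.25, -0.25 and -0.40 without control replicate 3), where those of all probes were -0.04, 0 and -0.01. Control arrays had a summed signal of these genes of 462977 to 488872, and the sum was 363723 to 455985 in CS+LPS, 384415 to 437624 in CS+LPS+NaHS and 335661 to 398173 in CS+LPS+PPG, so that no exposed array reached the lowest control. With the member genes included, the sum of all 18 detected markers was 713537 to 812089 over controls, 645053 to 747388 in CS+LPS, 671017 to 738327 with NaHS added and 608987 to 700302 with PPG added, and the groups then overlapped, since the lowest control, replicate 3, lay within the CS+LPS and CS+LPS+NaHS ranges. The median of the 13 genes in control replicate 3 differed by -0.01 from the other controls. Other sums also separated. Those of caveola genes (controls 173063 to 295870, exposed 124908 to 165401) and mesothelial markers (18210 to 29097 and 11083 to 16569) lay below every control. Those of macrophage markers and of the transitional state lay above. In the transitional list Lgals3 was the brightest gene, and the mean of the log2 signals overlapped (controls 12.60 to 12.89, CS+LPS 12.64 to 12.84). The median difference of that list from control was -0.21 in CS+LPS, -0.13 in CS+LPS+NaHS and -0.22 in CS+LPS+PPG. A sum weighs bright probes most, such as Clic5 and Emp2 with control values of 16.73 to 16.86. No share over all probes was computed for sums. Igfbp2, an insulin-like growth factor binding protein of mature type 1 cells, was at 11.87 to 13.21 on control arrays, 11.11 to 11.57 in CS+LPS, 11.12 to 11.34 in CS+LPS+NaHS and 11.01 to 11.29 in CS+LPS+PPG. It was called by the fold rule in all 3 comparisons, at -1.13 (limma adjusted p = 0.0669), -1.17 (adjusted p = 0.139) and -1.26 (adjusted p = 0.0415). Only the last passed the adjusted rule. Control replicate 3 was 1.18 above the other controls for Igfbp2. Without that array the differences were -0.74 (adjusted p = 0.0649), -0.78 (0.133) and -0.87 (0.0323). Leaving it out also added calls. Sema3b, of the same list, was -0.50 in CS+LPS and -0.49 in CS+LPS+PPG over all arrays and passed neither rule. Without control replicate 3 Sema3b passed the adjusted rule, at -0.785 (adjusted p = 0.04) and -0.783 (adjusted p = 0.0322). Agrn, a heparan sulfate proteoglycan of basement membranes, was at 15.46, 15.6 and 16 in control and fell in CS+LPS+PPG by 0.87 (SE 0.188, adjusted p = 0.0369), or by 0.72 without control replicate 3 (adjusted p = 0.0574). It was -0.47 in CS+LPS+NaHS (adjusted p = 0.252). Emp2, a tetraspan membrane protein, was -0.39 in CS+LPS (adjusted p = 0.103) and -0.41 in CS+LPS+PPG (adjusted p = 0.0706). Clic5, a chloride channel protein, was -0.30 in CS+LPS+NaHS (adjusted p = 0.285) and -0.37 in CS+LPS+PPG (adjusted p = 0.108).

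Markers of neighbouring cells were read beside these values. Of 9 alveolar type 2 markers detected, Lamp3, a lysosomal membrane protein, rose by 0.81 in CS+LPS (limma adjusted p = 0.045) and by 1.14 in CS+LPS+PPG (adjusted p = 0.0206), and no other passed against control. Type 2 marker sums ranged from 997864 to 1342950 over controls and 927558 to 1199726 in the exposed groups. Of 6 markers of the transitional state, Lgals3, galectin-3, which macrophages also carry, rose by 0.76 in CS+LPS+PPG (adjusted p = 0.0437), and no keratin passed. Against control, Krt8, Krt18 and Krt19 were at -0.27, -0.41 and -0.25 in CS+LPS, and at 0.096, -0.30 and -0.25 in CS+LPS+PPG. Cd68, a macrophage protein, rose by 1.39 in CS+LPS (adjusted p = 0.0301) and 1.33 in CS+LPS+PPG (adjusted p = 0.0275), and Adgre1 was called by the fold rule in the same groups at 1.31 and 1.19, but not without control replicate 3 (0.85 and 0.73, adjusted p of 0.129 and 0.13). Fcnb, a ficolin of neutrophils, rose by 2.78 in CS+LPS (adjusted p = 0.0452) and 2.61 in CS+LPS+PPG (adjusted p = 0.0424). Both Cd68 and Fcnb were called by the fold rule in CS+LPS+NaHS, at 1.42 (adjusted p = 0.089) and 2.74 (adjusted p = 0.121). Without control replicate 3 the adjusted p of Lamp3 in CS+LPS was 0.0736, that of Lgals3 0.0518, and those of Fcnb 0.0939 and 0.0812. Over 24 alternatives the adjusted call was lost under 16 and 6 for Lamp3, 17 for Lgals3, 7 and 7 for Cd68 and 16 and 15 for Fcnb. Of 7 markers of blood endothelium, which also expresses Cav1, Tek fell by 0.78 in CS+LPS (adjusted p = 0.0392) and Pecam1 fell by 0.82 in CS+LPS+PPG (adjusted p = 0.0229). These calls were lost under 16 and 7 of 24 alternatives, with adjusted p of up to 0.34 and 0.181. Emcn, of the same list, went the other way and passed neither rule. It was 0.99 higher in CS+LPS and 0.97 higher in CS+LPS+PPG than in control, or 0.64 and 0.62 without control replicate 3. The median of the 7 markers against control was -0.36 in CS+LPS, 0.18 in CS+LPS+NaHS and 0.04 in CS+LPS+PPG. Cdh5, the endothelial cadherin, was called by the fold rule in CS+LPS+NaHS, at 1.08 against control (adjusted p = 0.147) and at 1.45 against CS+LPS (adjusted p = 0.061). It was also called at -1.04 in CS+LPS+PPG against CS+LPS+NaHS (adjusted p = 0.563). Without control replicate 3 Cdh5 was not called in CS+LPS+NaHS against control, at 0.94 (adjusted p = 0.251). Endothelial marker sums ranged from 122412 to 131480 over controls, 109804 to 124557 in CS+LPS, 112661 to 126711 in CS+LPS+NaHS and 103579 to 124810 in CS+LPS+PPG. By the fold rule alone, the airway marker Foxj1 was called at -1.10 and the mesothelial marker Wt1 at -1.03 in CS+LPS+NaHS against control, and neither without control replicate 3 (-0.43 and -0.82, adjusted p of 0.382 and 0.313). Adipoq, a hormone of fat cells, was called by that rule in CS+LPS+PPG against both other exposed groups, in each of which 1 of 3 arrays had it well above background, so no fold is given. Of these groups only CS+LPS+PPG, where Adipoq was high, met the condition for a probe to be tested. Cidec of fat was called at -1.13 in CS+LPS against control and at 1.31 in CS+LPS+PPG against CS+LPS. Of pancreas markers, Ctrb1 passed both rules in CS+LPS+NaHS against CS+LPS (2.39, adjusted p = 0.0385; above 0.05 under 13 of 23 alternatives). By the fold rule alone it was called at -1.02 in CS+LPS and 1.37 in CS+LPS+NaHS, each against control (adjusted p of 0.173 and 0.187), at 1.38 in CS+LPS+PPG against CS+LPS (adjusted p = 0.257) and at -1.01 against CS+LPS+NaHS (adjusted p = 0.563), and the first of these was -0.67 without control replicate 3. Cela1 was called by the fold rule in all exposed groups against control at 1.00 to 1.06, and in none without that array, at 0.46, 0.40 and 0.45. The part of any of these cell types in the values of the type 1 cell genes was not tested.

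The 5 detected genes were also set against each other over the 12 arrays, in 10 pairs. Hopx and Cav1 moved together most closely, with r = 0.91 and rho = 0.87 (permutation p = 4e-05 and 0.00045, adjusted over 10 pairs 4e-04 and 0.0045). Without the 2 arrays farthest from the median of Hopx, control replicate 3 and CS+LPS replicate 3, r was 0.89. It was 0.84 without control replicate 3 alone, 0.93 after the group means were removed and 0.89 over the 8 arrays of slide 1. Slide 2 held 4 arrays, too few for a value. Ager and Cav1 (r = 0.84, rho = 0.52; permutation p = 0.00438 and 0.0888, adjusted 0.0146 and 0.244) fell to r = 0.17 without the farthest 2, and Ager and Hopx (r = 0.70, rho = 0.46; permutation p = 0.0128 and 0.134, adjusted 0.032 and 0.268) to 0.09, so over all arrays both relations rested on those arrays. Without control replicate 3 alone they were at r = 0.53 and 0.35, and on slide 1 at 0.61 and 0.62. Ager and Aqp5 (r = 0.76, rho = 0.69, permutation p = 0.00218 and 0.0149, adjusted 0.0109 and 0.0744) kept r = 0.75 without the farthest 2. For this pair r was 0.61 without control replicate 3 alone and 0.66 on slide 1. The 4 pairs with Pdpn had r between -0.05 and 0.04 over all arrays, 0.19 to 0.71 without control replicate 3 and 0.46 to 0.76 on slide 1. Without the farthest 2 arrays, which differed between pairs, r was 0.64 with Ager, 0.27 with Aqp5, 0.70 with Hopx and -0.42 with Cav1, and the sign of r for Cav1 changed with the arrays left out. The genes of a pair share arrays, scaling and, on bright spots, the scan, and the values are a description.

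**Figure D4:**
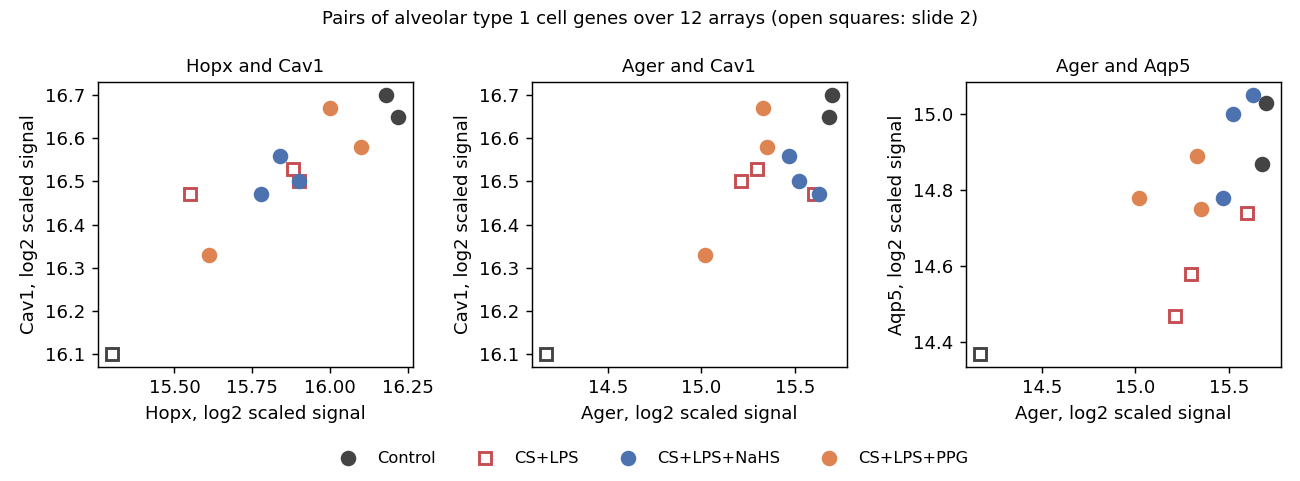
Log2 scaled signal of Cav1 against Hopx, Cav1 against Ager and Aqp5 against Ager (x and y axes) on 12 arrays, coloured by group, with open squares for slide 2. Control replicate 3 lies at the lower left of each panel, and the remaining 11 arrays follow a line most closely for Hopx and Cav1 (r = 0.84 without that array).

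Other genes with the most similar pattern were named for each member by Pearson's r over the 12 arrays among 11143 genes, as a description. Cav1 was most like Cav2, its partner in caveolae (r = 0.955, and 0.89 without control replicate 3), then Mfn2 (0.940) and the lymphatic marker Lyve1 (0.930). Hopx was most like Ubac1 (0.938), Cldn5, a claudin of endothelium (0.921, and 0.95 without control replicate 3), and Klhl23 (0.909). Ager was most like Ldb1 (0.980), Gpx3 (0.969) and the caveolar protein Ehd2 (0.966), which were at 0.92, 0.87 and 0.85 without control replicate 3. Aqp5 was most like Fads3 (0.902), Wipi1 (0.893) and Clstn2 (0.887). Pdpn was most like Zfp213 (0.883), C5h1orf210 (0.882) and Ppp1r1b (0.881), and these were no lower than 0.87 without that array.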

How the data were processed

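RNA of lung lobes was hybridized to Agilent rat arrays with 1 dye, 12 in all and 3 per group, with groups and replicate numbers taken from the labels. The authors deposited the Feature Extraction 10.7.3.1 output of each array, with a processed signal (an intensity after background subtraction by the software), and 5 lists of their own fold changes and p-values between groups, which hold none of the 6 genes and were not used here. The positions of the array design (rn4) were not used. Gene names, matched for 17514 probes, and promoter sequences came from RefSeq tables of GRCr8. Outlier spots were left out, log2 signals of a probe's spots were averaged, and each array's 75th percentile was subtracted with the mean of the 12 percentiles added back. A probe was well above background on an array if at least 50% of its spots were. No spot was saturated. The number of arrays limits the precision.

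The linear model of limma 3.58.1 in R 4.3.3 was fitted to all 12 arrays and 21239 probes, and 6 comparisons were read from it. The fits were tested on simulated data. Permutation tests of correlations used 100000 permutations, two-sided, over the 10 pairs of detected genes (Rtkn2 was not detected). The genes and lists were chosen with earlier results of these data known. Named genes were the 6 members in every comparison, the 2 called genes of each list and comparison with the largest change, S100a4 beyond them in 1 comparison, and the 3 genes most like each member. One list of genes is not reported here. Genes of a list given at an unadjusted p only, or called only without control replicate 3, were chosen after their values were seen. So were genes given because they went against the called genes of their list. Alternatives were quantile normalization, a percentile taken over fewer probes (those above background throughout), normexp with an offset of 50 (on the median signal, since the mean signal is not used here), outlier spots kept, 3 other filters, slide as a block and within slides, a replicate block, the 2 groups compared only, the methods' t-test, the other Pdpn probe or the mean of both, and each array left out.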

Additional observations from a re-analysis of the deposited data

How the results depend on the processing

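Over 722 values of the 5 detected genes under 27 alternatives, in which the second Pdpn probe stood for Pdpn in 1 of them, 648 kept their direction and their side of the adjusted threshold, 71 changed direction and 3 passed the adjusted rule in the same direction. The last 3 were Ager with slide as a block in 2 comparisons and within slide 2 in 1. Of those that changed direction, Ager at -1.35 and Hopx at -0.831 passed it, both with slide as a block. Taking slide as a block, genes (by their most intense probe) called by the adjusted rule numbered 1 for CS+LPS against control, 2 for CS+LPS+NaHS against CS+LPS and 1 for CS+LPS+PPG against CS+LPS, and by the fold rule 1 in each. Of 21239 probes, the adjusted rule then called 8830, 4890 and 4793 and the fold rule 4831, 4224 and 4120 in these 3 comparisons. Within slide 2, where CS+LPS meets control replicate 3 alone and that array is assumed to vary like the others, 1 gene was called by either rule, beside 3903 probes by the adjusted rule and 4810 by the fold rule. These fits rest on 1 array.

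With slide as a block and within slide 2, CS+LPS against control turned to 0.227 for Aqp5, 0.474 for Hopx and 0.715 for the second Pdpn probe. In the block fit and within slide 1, CS+LPS+NaHS against control turned to -0.0125 for Aqp5, -0.0774 for the second Pdpn probe, -0.166 for Cav1 and -0.153 for Ager, and CS+LPS+PPG against control to -0.146 for Aqp5, -0.295 for Hopx, -0.152 for Cav1 and -0.457 for Ager. In the block fit alone, CS+LPS+NaHS against CS+LPS turned to -0.239 for Aqp5, -0.831 for Hopx, -0.568 for Cav1 and -1.35 for Ager, and CS+LPS+PPG against CS+LPS to -0.373, -0.769 and -0.553 for Aqp5, Hopx and Cav1. Quantile normalization turned Cav1 to -0.0255 for CS+LPS against control. It gave -0.0965, -0.205, -0.17 and -0.145 for Aqp5, Hopx, Cav1 and Ager in CS+LPS+PPG against control, -0.0254 and -0.145 for Hopx and Cav1 against CS+LPS, and -0.15 and -0.232 against CS+LPS+NaHS. The other percentile gave Cav1 -0.0197 for CS+LPS and Hopx -0.014 for CS+LPS+PPG against control. Normexp gave Cav1 -0.0136 with NaHS and -0.00463 with PPG, each against CS+LPS, and Pdpn 0.00138 between the treated groups. The mean of both Pdpn probes was 0.0748 for CS+LPS+NaHS against CS+LPS, and the second probe alone 0.286, and 0.282 against control. The cause was not tested.

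Leaving out single arrays moved values through 0 as follows. For CS+LPS against control the ranges were -0.318 to 0.446 for Ager, -0.421 to 0.0369 for Hopx, -0.174 to 0.126 for Cav1 and -0.363 to 0.181 for the second Pdpn probe. For CS+LPS+NaHS against control they were -0.153 to 0.611 for Ager, -0.0125 to 0.318 for Aqp5, -0.357 to 0.101 for Hopx, -0.166 to 0.133 for Cav1 and -0.0774 to 0.466 for the second Pdpn probe. For CS+LPS+PPG against control they were -0.457 to 0.307 for Ager, -0.146 to 0.184 for Aqp5, -0.295 to 0.162 for Hopx, -0.152 to 0.148 for Cav1 and -0.405 to 0.138 for the second Pdpn probe. In all these the low end was the fit without control replicate 3. Against CS+LPS, CS+LPS+NaHS ranged from -0.0496 to 0.127 for Hopx and -0.0189 to 0.0298 for Cav1, and CS+LPS+PPG from -0.0517 to 0.122 for Cav1. Between the treated groups the ranges were -0.0358 to 0.206 for Hopx, -0.0735 to 0.0673 for Pdpn and -0.0592 to 0.114 for Cav1.

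Same-numbered arrays did not deviate together (18 pairs, r -0.31 to 0.14, 2 over 0.1). The labels give them only a shared number, and these correlations cannot tell whether they share anything else. With a replicate block Ager stayed at 0.189 for CS+LPS against control, no member was called, and over all probes the adjusted rule called 79 probes for CS+LPS, 2 with NaHS added and 32 with PPG added, each against control, in place of 428, 21 and 986. For other named genes, 794 of 1022 values kept direction and side, 202 lost the adjusted call, 26 gained it and 0 turned.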
